A study of Mus musculus with 24 samples.

Results

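The genes described here are the Wnt signalling genes of mouse retinal organoids (MROs): the ligands, the Frizzled receptors, the coreceptors Lrp5 and Lrp6, the R-spondins with their receptor Lgr5, the secreted inhibitors, the intracellular regulators Axin1, Axin2 and Nkd1, and the TCF/LEF transcription factors. They were chosen by name, as every protein-coding gene whose symbol starts with Wnt, Fzd, Sfrp or Dkk followed by a digit plus 17 named genes, and this gave 54 genes among the 126602 features of the count tables, 46603 of which are annotated genes. An MRO is retina-like tissue that forms when mouse embryonic stem cells aggregate and differentiate in a dish. The libraries are total RNA sequencing of 24 single MROs, 6 each at day 20 (D20), D22, D25 and D30 of differentiation, from 1 independent experiment. All 4 timepoints share 1 wild-type embryonic stem cell line, E14Tg2a, and the same trisection protocol, in which aggregates are cut into pieces and given the retinoid analogue EC23 for some days before D20. The labels call the genotype Control, and water was the solvent given during the time course. The titles of the D22, D25 and D30 libraries hold the word Ctrl and those of D20 do not. Anything that word marks cannot be told apart from time in comparisons with D20. Since all MROs came from 1 experiment, the p-values measure the spread between organoids of that experiment only.

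Wnt proteins are secreted lipid-modified ligands that bind Frizzled receptors. In the canonical branch a Frizzled and the coreceptor Lrp5 or Lrp6 together halt the destruction of beta-catenin, which then turns on target genes with the TCF/LEF factors, and some targets, such as Axin2 and Nkd1, dampen the signal in turn. In the developing eye, Wnt signalling is known for the ciliary margin, the pigment epithelium and the retinal vasculature, and Fzd5 for early eye formation and the progenitors of the neural retina.

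Depth was similar among organoids, with 13634846 to 19477108 reads counted on a feature, and 3 reads then correspond to at most 0.22 CPM (counts scaled to a common library size). Levels below are CPM on the TMM-scaled library size, called normalized CPM, and levels of different genes are compared only per kilobase of exon. A gene is called changed where the quasi-likelihood test of edgeR gave an adjusted p below 0.01 over all 46949 features whose base mean reached 10 normalized counts. Of the 54 Wnt genes, 35 passed this filter. The libraries are labelled retina, and the summed level of 5 photoreceptor genes (Crx, Nrl, Rcvrn, Nr2e3 and Prph2) lay between 720.2 and 1038 normalized CPM at D20 and between 2001 and 3573 at D30. The sum of 4 retinal progenitor genes (Fgf15, Sox2, Hes1 and Hes5) lay between 139.1 and 250.9 at D20 and between 41.02 and 129.7 at D30, and all but Sox2 fell. In whole organoids, fewer cells of a type and less RNA per cell cannot be told apart.

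From D20 to D30, 11 Wnt genes fell and 5 rose, while 19 tested genes did not pass the test. The 11 that fell were the receptors Fzd5, Fzd7, Fzd2 and Lgr5, the coreceptor Lrp5, the ligands Wnt3 and Wnt5b, the inhibitors Sfrp2 and Dkk3, the feedback gene Nkd1 and the transcription factor gene Tcf7l2. The 5 that rose were Axin2, Fzd1, Wnt7a, Dkk2 and Rspo2. Dkk2 passed the filter through D25 and D30 alone, so its call is a description only, though the counts and shares here include it. Those 16 are 45.71% of the 35 tested, beside 26.8% of all features and 45.2% of the 13263 tested protein-coding genes, so the number called is near that of protein-coding genes as a whole. By direction, 31.43% of the tested Wnt genes fell and 14.29% rose, beside 13.0% and 13.9% of all features and 16.5% and 28.8% of protein-coding genes. Their median log2 fold change was -0.31, against -0.04 over all features and 0.15 over protein-coding genes. With annotated genes only in the fit, the split was 13 that fell and 3 that rose.

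**Figure D1:**
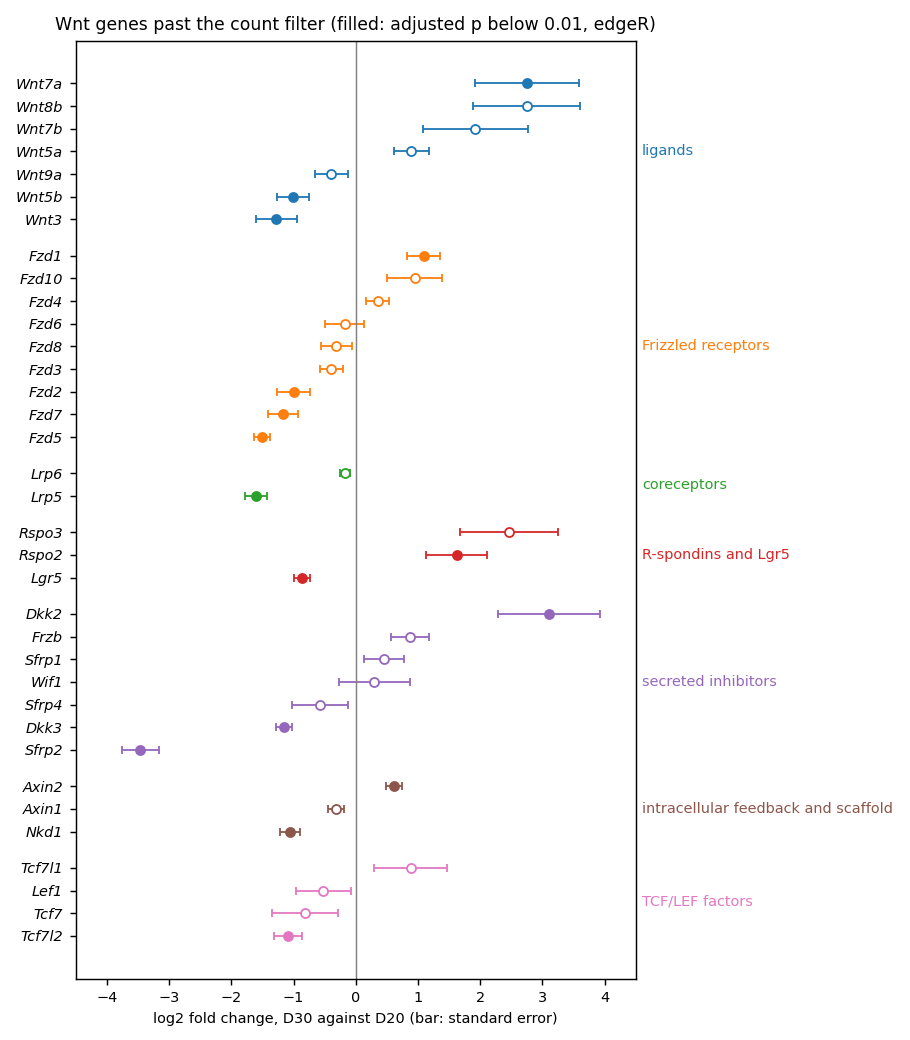
Log2 fold change from D20 to D30 (x axis) with its standard error for the 35 tested Wnt genes, grouped by role and coloured by group, with filled points for adjusted p below 0.01. Filled points lie on both sides of 0 among the receptors, the ligands, the inhibitors and the feedback genes, from -3.46 for Sfrp2 to 3.10 for Dkk2. Dkk2, and Wnt8b, which was not called, passed the count filter through D25 and D30 alone.

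Between consecutive timepoints few Wnt genes moved, and each one that was called fell. From D20 to D22 this was Dkk3 alone, which is 2.857% of the 35 tested, beside 1.90% of all features and 3.80% of protein-coding genes called in either direction and 0.285% and 0.912% called lower. From D22 to D25 it was Fzd5, Lrp5, Tcf7l2 and Dkk3, or 11.43%, beside 5.28% of all features and 11.7% of protein-coding genes in either direction and 2.19% and 3.02% lower. From D25 to D30 it was Sfrp2, Lgr5, Nkd1 and Wnt9a, or 11.43%, beside 3.51% and 8.38% in either direction and 1.75% and 3.03% lower. edgeR called 0 Wnt genes higher in any of these steps, while 1, 7 and 4 were higher at an unadjusted p below 0.05. Over all features, 1.62%, 3.08% and 1.76% were called higher in the 3 steps, and 2.89%, 8.66% and 5.35% of protein-coding genes. DESeq2 called 0, 1 and 0 Wnt genes higher, beside 2.61%, 4.64% and 2.86% of all features. The joint test of all 4 timepoints called 20 Wnt genes, or 57.14% beside 27.2% of all features and 48.0% of protein-coding genes. It added Rspo3, Wnt5a, Sfrp1 and Wnt9a to the 16 of D30 against D20.

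**Figure D2:**
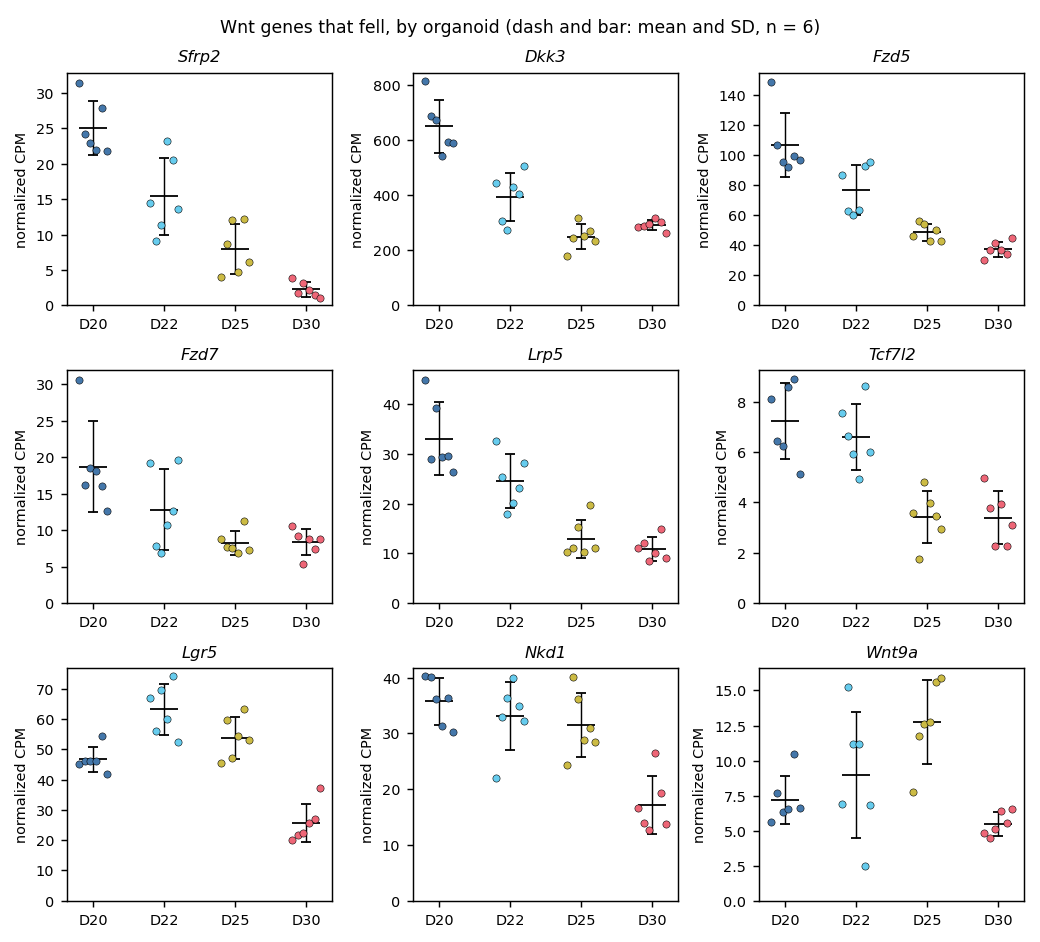
Normalized CPM (y axis, linear from 0) of 9 Wnt genes in each of the 24 organoids at D20, D22, D25 and D30 (x axis), with the mean as a dash and the SD as a bar (n = 6 per timepoint). Sfrp2, Fzd5 and Lrp5 descend over the 4 timepoints, Dkk3 reaches its low level by D25, and Lgr5, Nkd1 and Wnt9a are lower at D30 than at D25.

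The Frizzled genes changed in their relative order. Of 10 Frizzled genes 9 were tested, 3 fell and Fzd1 rose from D20 to D30. Fzd5 (ENSMUSG00000045005, chr1:64730558-64737751 on the minus strand) encodes the Frizzled known from early eye fields, and it had a lowest, median and highest level of 91.6, 98.1 and 148.6 normalized CPM at D20 and of 30.3, 36.5 and 44.6 at D30. The 6 organoids at D30 all lay below those at D20. At D22 the levels were 59.8 to 95.5 and overlapped those of D20, and at D25 they were 42.8 to 55.8 and overlapped those of D30. Its log2 fold change was -1.51 ± 0.13 (SE, n = 6 per timepoint, adjusted p = 2.155e-10), and -0.66 ± 0.13 from D22 to D25 (adjusted p = 0.001203). Fzd5 shares 1233 exon bases with Gm38058 on the opposite strand, whose reads cannot be told apart from its own where counting ignored the strand.

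Fzd7 and Fzd2, closely related receptors that serve both canonical and other Wnt branches, also fell. Fzd7 (ENSMUSG00000041075, chr1:59482424-59486955 on the plus strand) went from 12.6, 17.2 and 30.6 normalized CPM at D20 to 5.39, 8.75 and 10.6 at D30, without overlap. Its log2 fold change was -1.17 ± 0.24 (adjusted p = 0.0001964). Fzd2 had 6.54, 11.9 and 14.7 normalized CPM at D20 and 3.65, 5.08 and 9.01 at D30, so its groups overlapped, and the log2 change was -1.0 ± 0.26 (adjusted p = 0.002599). Both had their lowest mean at D25, where Fzd7 averaged 8.23 ± 1.63 and Fzd2 4.31 ± 1.26 normalized CPM (SD, n = 6).

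Fzd1 moved the other way. It had 3.77, 5.09 and 6.95 normalized CPM at D20 and 7.07, 11.7 and 14.9 at D30, so the lowest D30 organoid lay just above the highest of D20. The log2 fold change of Fzd1 was 1.09 ± 0.27 (adjusted p = 0.001642). The 5 Frizzled genes that were tested and not called in any comparison were Fzd3, Fzd4, Fzd6, Fzd8 and Fzd10. Fzd3, a receptor known for axon guidance and planar polarity, was the most abundant of these at 96.5 to 117.4 normalized CPM at D20, and its D30 levels spread widely, from 35.9 to 140.3. Fzd4, the receptor of the retinal vascular ligand norrin, stayed between 3.56 and 9.30 normalized CPM in all 24 organoids. Fzd6 lay between 0.907 and 6.12, Fzd8 between 2.77 and 8.84 and Fzd10 between 0.498 and 6.68.

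Per kilobase of exon, the order at D20 was Fzd5 (15.4 ± 3.08 CPM per kb, SD, n = 6), Fzd3 (8.59 ± 0.603), Fzd7 (4.13 ± 1.37) and Fzd2 (3.12 ± 0.747), and the last pair differed by less than their spread. At D30 it was Fzd3 (6.55 ± 2.71), Fzd5 (5.39 ± 0.743), Fzd1 (2.65 ± 0.796), Fzd7 (1.84 ± 0.390) and Fzd2 (1.56 ± 0.580). Here neither Fzd3 and Fzd5 nor Fzd7 and Fzd2 differed beyond their spread. The share of Fzd5 in the summed Frizzled level per kilobase averaged 42.7% ± 3.29 in the D20 organoids, 41.8% ± 2.86 in those of D22, 34.0% ± 4.03 in those of D25 and 25.5% ± 8.28 in those of D30. Fzd1 held 3.47% ± 0.742 of that sum at D20 and 11.9% ± 2.72 at D30. The sum itself was 35.9 ± 5.36 CPM per kb at D20 and 22.2 ± 4.14 at D30.

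**Figure D3:**
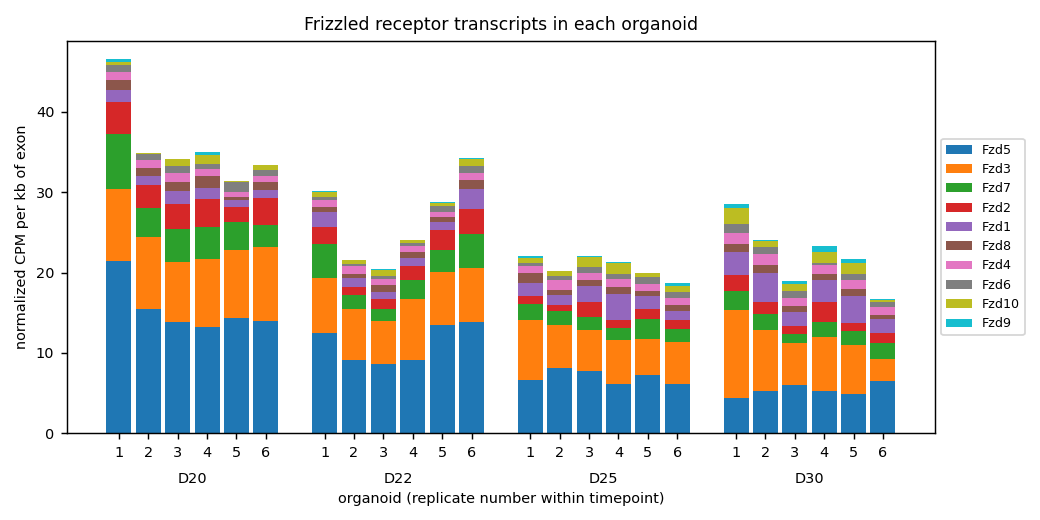
Levels of the 10 Frizzled genes per kilobase of exon (y axis, normalized CPM per kb, stacked) in each organoid (x axis, replicate number within D20, D22, D25 and D30). The Fzd5 segment is the tallest in the D20 organoids (13.2 to 21.5) and between 4.38 and 6.45 in those of D30, where Fzd3 is taller in 4 of 6.

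The coreceptors separated. Lrp5 (ENSMUSG00000024913, chr19:3584828-3686564 on the minus strand) is the coreceptor also needed for retinal vessel growth, and it had 26.4, 29.5 and 45.0 normalized CPM at D20, 17.97 to 32.6 at D22, 10.2 to 19.7 at D25 and 8.46, 10.5 and 15.0 at D30. No D30 organoid reached the D20 range, and the log2 fold change was -1.60 ± 0.18 (adjusted p = 3.366e-08), and the steepest of the 3 steps was that from D22 to D25 (-0.93 ± 0.18, adjusted p = 0.0009906). Lrp6, the more general coreceptor, was not called in any comparison, at 254.6 to 287.1 normalized CPM at D20 and 195.5 to 278.6 at D30 (log2 fold change -0.17 ± 0.08, adjusted p = 0.1001). Per kilobase, Lrp6 stood above Lrp5 in both groups, at 19.4 against 3.40 CPM per kb at D20 and 17.2 against 1.12 at D30. The ratio of Lrp5 to Lrp6 per kilobase, chosen after the values were seen and not tested, had a median of 0.162 at D20 (0.140 to 0.220) and 0.0644 at D30 (0.0494 to 0.0919).

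Lgr5, the R-spondin receptor known as a stem cell marker, was lower at D30 than at each earlier timepoint. Lgr5 (ENSMUSG00000020140, chr10:115450311-115587780 on the minus strand) had 41.8, 46.2 and 54.4 normalized CPM at D20, 52.6 to 74.1 at D22, 45.5 to 63.3 at D25 and 20.1, 24.02 and 37.1 at D30. Its D30 organoids all lay below those of the other 3 timepoints. The log2 fold change was -0.86 ± 0.13 against D20 (adjusted p = 2.2e-06) and -1.07 ± 0.13 against D25 (adjusted p = 9.075e-07), while the rise from D20 to D22 was 0.44 ± 0.12 and was not called (adjusted p = 0.03579).

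The R-spondins, secreted proteins that keep Frizzled receptors on the cell surface, varied widely between organoids. Rspo2 had 0.213, 1.87 and 3.59 normalized CPM at D20 and 1.51, 4.53 and 9.86 at D30, and the log2 change was 1.62 ± 0.49 (adjusted p = 0.008976). The groups overlapped, and the call was lost in 13 of the 24 fits that left out 1 organoid (D20 organoids 1 to 5, D22 organoid 4, D25 organoids 2, 3 and 6, and D30 organoids 1, 2, 4 and 5), with log2 fold changes of 1.38 to 1.70 and adjusted p of 0.01032 to 0.0312. Rspo3 had 0.00, 1.16 and 4.10 normalized CPM at D20 and 1.62, 7.68 and 16.2 at D30, and its log2 fold change of 2.46 ± 0.79 was not called (adjusted p = 0.01342). It passed the joint test (adjusted p = 0.009279), but 19 of the 24 omissions of 1 organoid took it above the threshold, to between 0.01009 and 0.02679; the exceptions were D20 organoid 6, D22 organoid 6, D25 organoid 5 and D30 organoids 3 and 6. Without D20 organoid 6, D22 organoid 1, D22 organoid 6, D30 organoid 3 or D30 organoid 6, in turn, the D30 against D20 comparison was called (adjusted p = 0.005096 to 0.009972). Rspo1 and Rspo4 did not pass the filter, with mean counts of 9.417 and 1.0 reads per organoid.

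**Figure D4:**
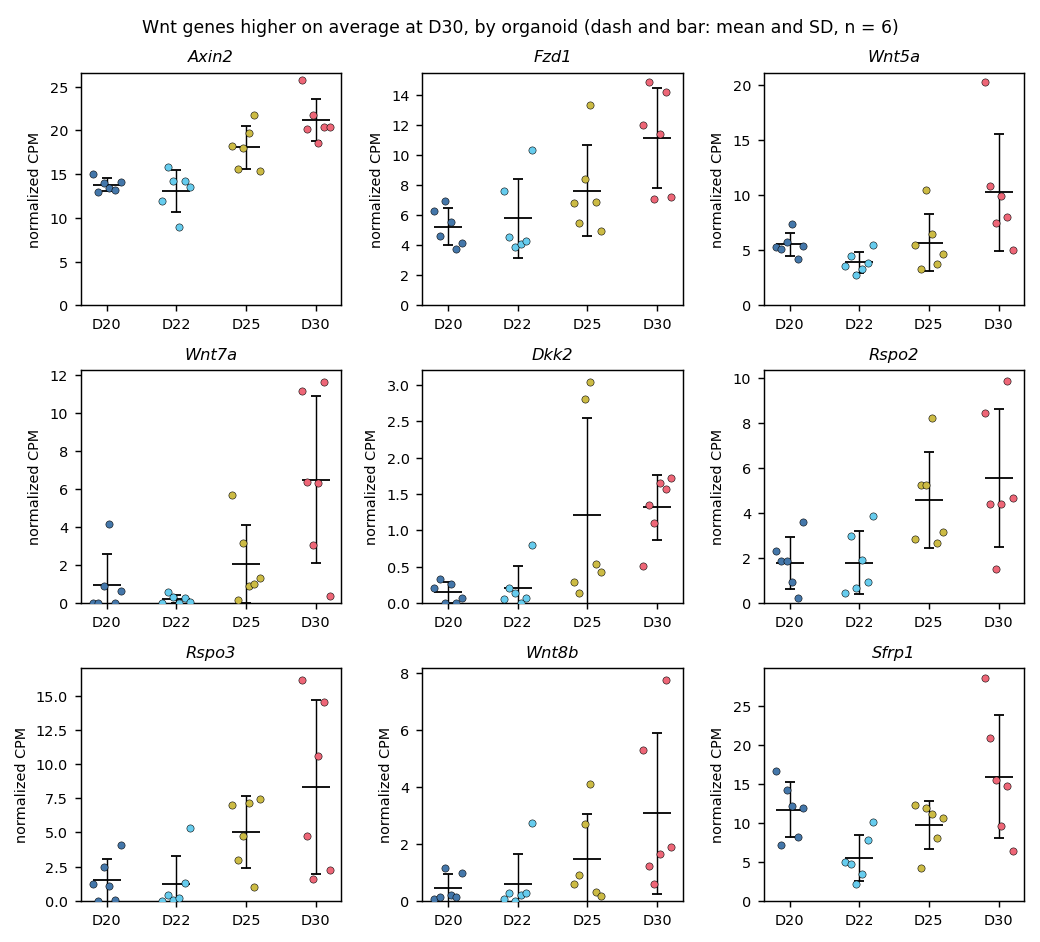
Normalized CPM (y axis, linear from 0) of 9 Wnt genes whose mean was higher at D30 than at D20, in each of the 24 organoids by timepoint (x axis), with the mean as a dash and the SD as a bar (n = 6 per timepoint). Axin2 has compact groups, and Fzd1 runs from 4.94 to 13.3 at D25. Wnt7a, Rspo3 and Wnt8b at D30 run from near the D20 levels to several times higher. Wnt5a, Rspo3, Wnt8b and Sfrp1 were not called for D30 against D20.

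Among the 19 ligands, 7 were tested. Wnt5b, a ligand mostly linked to beta-catenin-independent signalling, had 3.49, 6.45 and 9.51 normalized CPM at D20 and 2.03, 2.59 and 5.23 at D30, with overlapping groups and a log2 change of -1.01 ± 0.26 (adjusted p = 0.002778). The Wnt5b call was lost without D20 organoid 1 or D30 organoid 3 (adjusted p = 0.01046 to 0.01153). Wnt3, a canonical ligand, had 1.10, 2.70 and 3.36 normalized CPM at D20 and 0.718, 0.975 and 1.62 at D30 (log2 fold change -1.28 ± 0.33, adjusted p = 0.002553). These groups too overlapped, and the mean of Wnt3 was 2.34 ± 0.983 as late as D25.

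Wnt9a, a ligand known from joint and blood cell development, was the 1 ligand called between consecutive timepoints. It had 5.59, 6.56 and 10.5 normalized CPM at D20, 2.45 to 15.3 at D22, 7.76, 12.7 and 15.9 at D25 and 4.47, 5.32 and 6.54 at D30. The D25 and D30 organoids did not overlap, with a log2 fold change of -1.22 ± 0.26 (adjusted p = 0.0032), while D30 against D20 was not called (-0.39 ± 0.27, adjusted p = 0.2616). Leaving out D25 organoid 5, D25 organoid 6 or D30 organoid 2 moved the adjusted p of the D25 to D30 change to between 0.01017 and 0.01165.

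Wnt5a, the paralogue of Wnt5b, passed the joint test (adjusted p = 0.001075). It had 4.20, 5.35 and 7.39 normalized CPM at D20, 2.77 to 5.46 at D22 and 4.99, 8.94 and 20.2 at D30, and the D30 organoid next to the highest was at 10.8. Its log2 fold change from D20 to D30 was 0.89 ± 0.28 (adjusted p = 0.01176), and 0.58 without D30 organoid 1 (adjusted p = 0.08296). The call was reached without D20 organoid 4, D25 organoid 2, D25 organoid 3, D30 organoid 3 or D30 organoid 6 (0.002982 to 0.009802), with DESeq2 (0.002788) and with DESeq2's size factors in edgeR (0.007347). The ratio of Wnt5a to Wnt5b per kilobase, chosen after the values were seen and not tested, had a median of 0.301 at D20 (0.190 to 0.496) and 0.972 at D30 (0.591 to 2.502), with no overlap.

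Wnt7a, a ligand known for the growth of forebrain vessels, rose from a low level. Wnt7a (ENSMUSG00000030093, chr6:91363981-91411363 on the minus strand) was at 0 reads in D20 organoids 1, 2 and 5, at 0.640 and 0.894 normalized CPM in organoids 6 and 3, and at 4.16 in organoid 4. At D30 its lowest, median and highest levels were 0.388, 6.35 and 11.6 normalized CPM. D30 organoids 3 (3.07) and 6 (0.388) lay within the D20 range. The log2 fold change was 2.75 ± 0.83 (adjusted p = 0.009189), and 4.35 without D20 organoid 4 (adjusted p = 0.0003029). The call was lost without any 1 of 16 other organoids, namely D20 organoids 1, 2, 3, 5 and 6, D22 organoids 3, 5 and 6, D25 organoids 3 to 6 and D30 organoids 1, 2, 4 and 5 (2.49 to 2.76, adjusted p = 0.01003 to 0.02478), and with DESeq2 (adjusted p = 0.03351).

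Wnt8b, a ligand of the cortical hem, and Wnt7b, the paralogue of Wnt7a, were not called in any comparison. Wnt8b had 0.0699, 0.170 and 1.17 normalized CPM at D20 and 0.579, 1.77 and 7.77 at D30 (log2 fold change 2.75 ± 0.86, adjusted p = 0.01136). It had 1 to 17 reads per D20 organoid and 10 to 119 at D30. Like Dkk2 below, Wnt8b passed the filter on low counts through D25 and D30 alone, so its change is a description only. Wnt7b had 0.00, 0.241 and 2.37 at D20 and 0.665, 2.98 and 4.68 at D30 (1.92 ± 0.84, adjusted p = 0.07241). Per kilobase of exon the ligands at the top were Wnt5b (2.44 CPM per kb) and Wnt9a (2.16) at D20, Wnt9a (3.83) at D25, and Wnt7a (2.04), Wnt9a (1.65), Wnt5a (1.31) and Wnt5b (1.21) at D30. The summed ligand level was 6.92 ± 0.965 CPM per kb at D20 and 8.50 ± 3.14 at D30, a difference within the spread at D30.

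Of the 12 ligands that did not pass the filter, Wnt11, Wnt4, Wnt9b, Wnt2b and Wnt16 had mean counts of 5.25, 5.833, 4.292, 3.167 and 1.958 reads per organoid. The remaining 7, Wnt1, Wnt2, Wnt3a, Wnt6, Wnt8a, Wnt10a and Wnt10b, had means of 0.08333 to 0.8333 reads and at most 7 reads in any organoid. At this depth they were not detectable above the 3-read floor in most organoids. The other genes under the filter were Fzd9 with a mean of 6.458 reads, Notum with 4.708, Sfrp5 with 2.167, and Dkk1 and Dkk4 with 0.9167 and 0.08333.

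The secreted inhibitors held both the most abundant Wnt gene and the steepest fall. Of 11 inhibitors 7 were tested, and from D20 to D30 Sfrp2 and Dkk3 fell and Dkk2 rose. Sfrp2 (ENSMUSG00000027996, chr3:83766321-83774316 on the plus strand), a secreted Frizzled-related protein of retinal progenitors, had 21.8, 23.6 and 31.3 normalized CPM at D20, 9.07, 14.0 and 23.2 at D22, 4.05, 7.37 and 12.1 at D25 and 1.05, 1.99 and 3.88 at D30. Each D30 organoid was below each D25 organoid, and each D25 organoid below each D20 organoid. The log2 fold change was -3.46 ± 0.30 from D20 to D30 (adjusted p = 1.472e-10) and -1.81 ± 0.29 from D25 to D30 (adjusted p = 0.0001149).

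Dkk3, a divergent member of the Dickkopf family whose effect on Wnt signalling is debated, was far above the other inhibitors. Dkk3 (ENSMUSG00000030772, chr7:112116017-112159057 on the minus strand) had 542.6, 631.3 and 811.5 normalized CPM at D20, 273.8 to 506.0 at D22, 177.6 to 315.7 at D25 and 262.2, 291.3 and 316.2 at D30. Its level dropped without overlap from D20 to D22 (log2 fold change -0.72 ± 0.13, adjusted p = 0.00061), fell from D22 to D25 with overlapping groups (-0.66 ± 0.13, adjusted p = 0.0008017), and was not called from D25 to D30 (0.23 ± 0.13, adjusted p = 0.3609). D30 against D20 gave -1.15 ± 0.13 (adjusted p = 1.582e-08). Per kilobase, Dkk3 made up 91.8% ± 0.740 of the summed inhibitor level at D20 and 90.2% ± 2.57 at D30.

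Dkk2, a Dickkopf that binds Lrp5 and Lrp6, was near the floor at first. It had 0 to 5 reads per D20 organoid, 2 to 55 at D25 and 9 to 31 at D30, that is 0.00, 0.137 and 0.336 normalized CPM at D20 and 0.514, 1.46 and 1.72 at D30. The D30 organoids all lay above those of D20, with a log2 fold change of 3.10 ± 0.82 (adjusted p = 0.003317). Dkk2 passed the filter on low counts through D25 and D30 alone, with mean counts of 2.167 and 3.167 reads at D20 and D22 and 20.67 and 21.5 at D25 and D30. It was tested because it was high late, and its call is a description only. D25 organoids 3 and 4 had 2.81 and 3.04 normalized CPM, more than any other organoid.

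Sfrp1, the paralogue of Sfrp2, did not follow it. It had 7.12, 12.02 and 16.6 normalized CPM at D20, 2.09 to 10.05 at D22, 4.25 to 12.3 at D25 and 6.38, 15.1 and 28.5 at D30, and passed the joint test (adjusted p = 0.003203; 0.01064 without D22 organoid 4) but no comparison of timepoints. The ratio of Sfrp2 to Sfrp1 per kilobase, chosen after the values were seen and not tested, had a median of 3.79 at D20 (3.27 to 6.92) and 0.306 at D30 (0.173 to 0.464). Frzb, Sfrp4 and Wif1, further secreted Wnt binders, were tested and not called, and lay between 1.983 and 11.5, 0.277 and 4.23, and 0.0676 and 4.89 normalized CPM over all organoids.

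The feedback genes Axin2 and Nkd1, both classical Wnt targets, moved in opposite directions. Axin2 (ENSMUSG00000000142, chr11:108920349-108950783 on the plus strand), a scaffold of the beta-catenin destruction complex, had 13.0, 13.7 and 15.0 normalized CPM at D20, 8.96 to 15.8 at D22, 15.3 to 21.8 at D25 and 18.6, 20.4 and 25.8 at D30. Every D30 organoid was above every D20 organoid, with a log2 fold change of 0.62 ± 0.13 (adjusted p = 0.0003755), and the step from D22 to D25 was 0.46 ± 0.13 (adjusted p = 0.01991). Axin2 shares 209 exon bases with an antisense gene, Gm11670, and Sfrp2 347 with Gm26771.

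Nkd1 (ENSMUSG00000031661, chr8:88521354-88594884 on the plus strand), which binds Dishevelled, had 30.2, 36.3 and 40.3 normalized CPM at D20, 22.1 to 39.9 at D22, 24.3 to 40.2 at D25 and 12.7, 15.3 and 26.4 at D30. The D30 and D20 organoids did not overlap, with a log2 fold change of -1.06 ± 0.16 (adjusted p = 3.654e-06), and the change lay between D25 and D30 (-0.88 ± 0.16, adjusted p = 0.0004941). The ratio of Axin2 to Nkd1 per kilobase, chosen after the values were seen and not tested, had a median of 0.315 at D20 (0.268 to 0.388) and 1.21 at D30 (0.582 to 1.42). Axin1, the constitutive scaffold, was not called, at 29.7 to 46.5 normalized CPM at D20 and 23.9 to 41.5 at D30 (log2 fold change -0.32 ± 0.13, adjusted p = 0.05035).

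Of the TCF/LEF factors, which carry beta-catenin to DNA, Tcf7l2 fell and the other 3 were not called. Tcf7l2 had 5.12, 7.28 and 8.89 normalized CPM at D20, 4.92 to 8.63 at D22, 1.74 to 4.83 at D25 and 2.26, 3.45 and 4.97 at D30. The earlier and the later pair of timepoints did not overlap except that the highest D30 organoid (4.97) reached the lowest of D22 (4.92). The log2 fold change was -1.09 ± 0.23 from D20 to D30 (adjusted p = 0.0004032) and -0.95 ± 0.23 from D22 to D25 (adjusted p = 0.007403). The step was no longer called without any 1 of D22 organoids 1, 2, 5 and 6 and D25 organoids 1, 2, 4, 5 and 6 (log2 changes of -0.81 to -1.0, adjusted p = 0.01086 to 0.02268). Lef1 (0.209 to 4.68 normalized CPM over all organoids), Tcf7 (0.00 to 2.37) and Tcf7l1 (0.00 to 2.48) were low throughout.

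Promoters of these genes are shown because a TCF/LEF site is short enough to be read in them. A window of 250 bases before the annotated start was taken from RefSeq (GRCm38.p6) for 35 of the 54 genes, which had 43 windows in all, and searched on both strands for CTTTGAA or CTTTGAT and for CTTTGTA or CTTTGTT. One or more of these stood in 6 of the 43 windows, those of Dkk1, Fzd7, Lef1, Tcf7l2, Wnt11 and Wnt5b, beside 14.8% of all 32851 windows of that length. Such a match is a description of the letters and not a binding site. The 4 windows below are of 2 genes that fell and hold a match, in capitals, and of the 2 feedback genes that moved apart and hold none in these windows. Tcf7l2 also fell and holds CTTTGTT 14 bases before one of its starts, and its windows are not printed. Fzd7 is at chr1:59481897-59482146 on the plus strand with AACAAAG starting 130 bases before the start, Wnt5b at chr6:119449387-119449636 on the minus strand with CTTTGAT 71 bases before one of its 3 starts, Axin2 at chr11:108920099-108920348 on the plus strand and Nkd1 at chr8:88527383-88527632 on the plus strand. The starts are those of RefSeq and can differ from the gene spans given above, which are from GENCODE: that of Fzd7 lies before its span, and that of Nkd1 inside its span, where the window holds 0 exon bases. The sequence before the outermost GENCODE start of Nkd1 was not searched.
Fzd7: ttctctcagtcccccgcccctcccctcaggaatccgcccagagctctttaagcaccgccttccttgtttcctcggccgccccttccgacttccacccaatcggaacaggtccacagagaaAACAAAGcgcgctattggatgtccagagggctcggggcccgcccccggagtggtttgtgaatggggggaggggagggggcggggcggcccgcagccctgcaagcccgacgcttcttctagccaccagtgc
Wnt5b: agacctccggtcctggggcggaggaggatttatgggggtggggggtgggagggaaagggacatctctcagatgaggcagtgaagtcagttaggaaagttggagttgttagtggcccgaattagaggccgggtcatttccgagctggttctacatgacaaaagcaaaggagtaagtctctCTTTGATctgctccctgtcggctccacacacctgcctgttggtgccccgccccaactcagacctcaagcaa
Axin2: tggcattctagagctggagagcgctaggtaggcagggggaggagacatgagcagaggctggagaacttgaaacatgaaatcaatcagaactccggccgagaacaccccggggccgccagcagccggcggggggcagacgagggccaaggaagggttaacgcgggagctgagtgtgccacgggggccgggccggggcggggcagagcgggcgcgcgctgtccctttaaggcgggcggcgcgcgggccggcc
Nkd1: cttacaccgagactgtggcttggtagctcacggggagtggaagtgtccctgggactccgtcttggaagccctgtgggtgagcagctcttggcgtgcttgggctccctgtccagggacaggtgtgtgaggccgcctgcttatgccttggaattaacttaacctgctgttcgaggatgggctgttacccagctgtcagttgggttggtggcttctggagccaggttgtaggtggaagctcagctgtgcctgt
The share of G and C in them is 65.2% for Fzd7, 55.6% for Wnt5b, 69.2% for Axin2 and 58.4% for Nkd1.

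Marker genes of forebrain cells differed widely between single organoids, and some Wnt genes moved with them. The summed level of 6 forebrain and cortex genes (Emx1, Emx2, Neurod6, Tbr1, Eomes and Bcl11b) lay between 9.247 and 190.9 normalized CPM at D20, 7.971 and 21.91 at D22, 8.716 and 262.7 at D25, and 11.03 and 227.0 at D30. Of these 6 genes Emx2 alone passed the test from D20 to D30. At D30 the sum was 198.5, 155.7, 38.11, 164.4, 227.0 and 11.03 normalized CPM in organoids 1 to 6. Wnt7a in the same organoids was 11.1, 6.36, 3.07, 6.33, 11.6 and 0.388 normalized CPM, and Rspo3 was 16.2, 4.77, 1.62, 10.6, 14.6 and 2.22. Organoids 1 and 5 were thus highest in all 3 measures and organoids 3 and 6 lowest. The same pairs were highest and lowest at D30 in the summed Müller glia and mesenchyme genes described below. The Müller glia sums were 3361, 2074, 1745, 2128, 2629 and 1033 in organoids 1 to 6. Those of mesenchyme were 257.0, 155.3, 109.9, 138.3, 294.1 and 66.74. At D25 organoid 1 was highest in forebrain sum and Wnt7a (262.7 and 5.67). D25 organoids 4 and 6 had sums of 119.1 and 143.7 with Wnt7a at 0.885 and 1.34, and organoid 3 had 72.02 and 3.18. At D20, organoids 3, 4 and 6, whose forebrain sums were 72.5, 61.35 and 190.9, were the ones with Wnt7a reads and with Wnt7b reads. Axin2 was between 18.6 and 25.8 in all 6 D30 organoids.

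**Figure D5:**
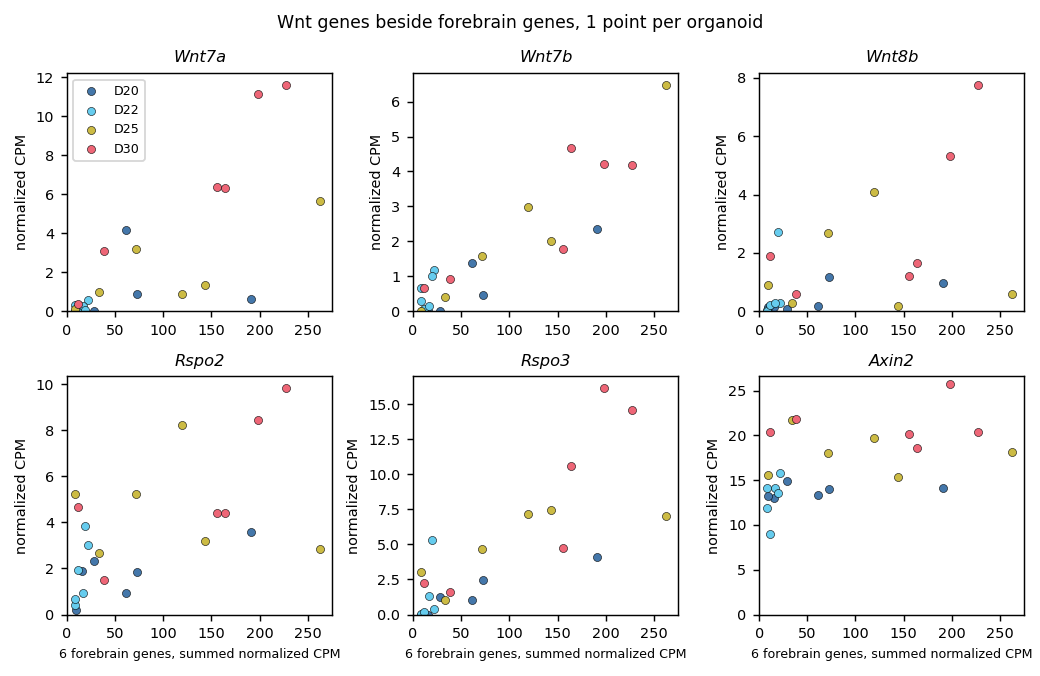
Normalized CPM of 6 Wnt genes (y axis) against the summed normalized CPM of 6 forebrain genes (x axis) in each organoid, coloured by timepoint. The D30 organoids with forebrain sums of 155.7 or more carry 6.33 to 11.6 normalized CPM of Wnt7a and the others 0.388 and 3.07, while Axin2 of the D30 organoids stays between 18.6 and 25.8.

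Leaving out the 3 organoids of each timepoint with the highest forebrain sum kept 12 organoids, with sums of 28.46, 15.31 and 9.247 normalized CPM at D20 and 155.7, 38.11 and 11.03 at D30, so the kept groups still differed in it. In these 12 the log2 fold change from D20 to D30 was -3.79 for Sfrp2 (adjusted p = 3.268e-07), -1.81 for Lrp5 (6.798e-05), -1.53 for Fzd5 (4.325e-06), -1.53 for Nkd1 (1.811e-05), -1.30 for Dkk3 (1.415e-05), -1.56 for Wnt5b (0.006449), -1.43 for Fzd7 (0.005249), -1.35 for Tcf7l2 (0.009702) and -0.84 for Lgr5 (0.003209), all called by edgeR. Those of Axin2 (0.60, adjusted p = 0.04246), Fzd1 (0.99, 0.05208), Rspo2 (1.26, 0.1767), Rspo3 (2.68, 0.04273) and Dkk2 (2.87, 0.06007) were not called in these 12, nor were those of Fzd2 (-1.21, 0.01782) and Wnt3 (-1.36, 0.05762). Wnt7a was also called, but the 3 kept D20 organoids are those with 0 Wnt7a reads and the kept D30 organoid with the most Wnt7a reads, 104, is the one with a forebrain sum of 155.7, so nothing is read from that call. The part of forebrain cells in the changes of Wnt7a, Rspo2 and Rspo3 was not tested. This fit cannot show it, since the kept groups still differed in the forebrain sum. With 3 organoids per timepoint, calls are also lost where a log2 change hardly moves. The steps of Dkk3 from D20 to D22 (-0.87, 0.01083) and to D25 (-0.46, 0.2182) and those from D22 to D25 of Fzd5 (-0.39, 0.3466), Lrp5 (-0.62, 0.3245) and Tcf7l2 (-0.87, 0.3016), and that of Wnt9a from D25 to D30 (-1.31, 0.01568), were not called in them either.

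Marker genes of other cell types moved with time. The sum of 7 roof plate and choroid plexus genes lay between 2.63 and 5.24 normalized CPM at D20 and between 11.1 and 56.7 at D30, and 5 of its 7 genes rose (Lmx1a, Msx1, Clic6, Folr1 and Kcnj13) while Gdf7 was at or near 0. That of 7 mesenchyme genes lay between 9.34 and 29.6 at D20 and between 66.7 and 294.1 at D30, and 5 of 7 rose. The lists share genes. Pdgfra, with means of 10.08 at D20 and 85.9 at D30, is on the mesenchyme and oligodendrocyte lineage lists. Msx1 is on the roof plate and ciliary margin lists, and Mitf on the pigment epithelium and ciliary margin lists. Of 6 Müller glia genes, 4 rose (Rlbp1, Slc1a3, Apoe and Kcnj10) and Sox9 fell, and together they summed to between 457 and 648 at D20 and between 1033 and 3361 at D30. All 5 bipolar cell genes (Vsx1, Grm6, Prkca, Scgn and Cabp5) rose, from a sum of 24.07 to 30.87 at D20 to one of 179.0 to 296.0 at D30. Of 5 ganglion cell genes, Pou4f1, Pou4f2 and Sncg fell and Thy1 rose, with a sum of 64.47 to 155.2 at D20 and 48.99 to 90.28 at D30. The sum of 8 pigment epithelium genes lay between 134.4 and 250.3 at D20 and between 46.51 and 2742 at D30, where Ttr and Mitf rose, Dct fell, and Rpe65 was at 0 in all D20 organoids. At D30 Ttr averaged 986.8 normalized CPM and made up most of the mean sum, while Tyr, Tyrp1 and Pmel averaged 6.433, 13.89 and 7.254. D30 organoids 2 and 6, with pigment epithelium sums of 2742 and 2537, also had the highest roof plate and choroid plexus sums (47.65 and 56.71). The sum of 5 ciliary margin genes lay between 16.1 and 32.04 at D20 and between 30.81 and 51.75 at D30, where Msx1 and Mitf rose and Wfdc1 fell. Of 4 endothelial genes, Kdr fell and made up nearly all of the sum (255.2 to 341.4 at D20 and 125.4 to 206.1 at D30), Pecam1 rose to a mean of 1.374 normalized CPM, and Cdh5 and Tie1 were at 0 in all D20 organoids. Of 6 amacrine and horizontal cell genes Gad1 alone was called, and it rose. Of 4 oligodendrocyte lineage genes Pdgfra and Sox10 rose and Mbp fell, and of 4 muscle genes Ttn alone passed the filter, and it fell. Microglia genes were near 0 in all organoids, at a sum of at most 1.31. Of the genes that rose, Lmx1a, Clic6, Kcnj13, Vsx1, Grm6, Sox10 and Pecam1 averaged at most 0.504 normalized CPM at D20 and at D22. They passed the filter on low counts through the later timepoints, so their calls are a description only. The part of these cell types in the Wnt results was not tested.

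Of 69 further genes of the pathway, 59 were tested, and from D20 to D30 13 rose and 13 fell, or 44.07%, beside 26.8% of all features and 45.2% of protein-coding genes (13.9% and 28.8% higher, 13.0% and 16.5% lower), with a median log2 fold change of 0.07. Both genes of Wnt secretion rose, Wls, the carrier that brings Wnt proteins to the surface, and Porcn, which attaches their lipid. Wls went from 1.47 to 5.48 normalized CPM at D20 to 7.65 to 34.4 at D30, without overlap, and the log2 change was 2.54 ± 0.41 (adjusted p = 1.05e-05). Of 6 other receptors tested, 5 fell (Ror1, Ryk, Ptk7, Lgr4 and Reck), beside the 13.0% and 16.5% called lower above, with Ror1 going from 7.68 to 12.4 normalized CPM at D20 to 2.15 to 3.997 at D30 (-1.55 ± 0.23, adjusted p = 3.287e-06). The largest rise was that of Daam2, a formin of the Wnt pathway (3.74 ± 0.39, adjusted p = 4.208e-09), followed by Wls, Tnfrsf19 (2.18 ± 0.39), Sostdc1 (2.17 ± 0.48) and the planar polarity gene Prickle1 (1.58 ± 0.17).

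Among frequent Wnt target genes, 6 were tested and 3 fell, beside 13.0% of all features and 16.5% of protein-coding genes. Ccnd1, cyclin D1, went from 101.8 to 171.4 normalized CPM at D20 to 17.3 to 32.6 at D30, a log2 change of -2.53 ± 0.17 (adjusted p = 3.004e-13), and was called in every consecutive step. Mycn, a progenitor growth regulator, had -1.62 ± 0.16 (adjusted p = 1.051e-09) and Fgf9 -1.13 ± 0.13 (adjusted p = 3.746e-08), while Tnfrsf19 rose. The corepressor gene Tle3 fell as well (-1.32 ± 0.15, adjusted p = 1.552e-08). Ctnnb1, the beta-catenin gene, averaged 573.9 normalized CPM at D20 and 593.6 at D30 (log2 fold change 0.05 ± 0.09, adjusted p = 0.7115), and none of the 3 tested genes of receptor turnover (Rnf43, Znrf3 and Kremen1) was called.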

How the data were processed

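Per the sample labels, ribosomal RNA was removed and strand-specific libraries were made from single organoids. The authors trimmed the reads (cutadapt 1.5), aligned them with HISAT2 to GRCm38/mm10, assembled further transcripts with StringTie (1.3.3) and deposited whole-number counts per feature from HTSeq (0.6.1), without normalization. Whether counting used the strand is not given in the sources used here, so reads of 11 Wnt genes that share exon bases with a gene on the opposite strand cannot be told apart from that gene's. Summary lines of the count tables were left out. Timepoints come from the labels. Counts of 13634846 to 19477108 reads per organoid were fitted together in edgeR (4.0.16, R 4.3.3) with TMM, a base mean of at least 10, 46949 features, Benjamini-Hochberg adjustment over all of them and a threshold of 0.01; the study used DESeq2, an alternative here (1.42.0). Standard errors come from the test statistic. The common biological coefficient of variation was 0.3846. The floor of 3 reads covers counting error only. No pair of the 60 within-timepoint pairs of organoids agreed within sampling noise (lowest chi-square per degree of freedom 5.997).

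The members and gene lists were chosen with earlier results of these data known. Some genes of the photoreceptor, progenitor, forebrain and oligodendrocyte lists are not reported here, and the sums leave them out. Named are every tested Wnt gene, those under the filter with a mean of at least 1 read, and of the other pathway genes the 5 largest rises and 5 largest falls from D20 to D30 past the threshold; the 9 Wnt genes with a mean under 1 read, Porcn, Ryk, Ptk7, Lgr4, Reck, Ctnnb1 and the receptor turnover genes are named outside that rule, after their values were seen. Exon lengths and overlaps come from GENCODE M21. The scripts were tested on simulated counts. Figures were drawn with matplotlib (3.10.9) in Python (3.11.15). Alternatives were DESeq2's test or size factors, annotated genes only, filterByExpr, no filter, a replicate block, compared timepoints only, each organoid left out, and, added after seeing the data, the 12 organoids left without the 3 of each timepoint highest in forebrain genes.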

Additional observations from a re-analysis of the deposited data

Results flagged for a closer look

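In 12 of the 140 groups of 6 organoids examined for the 35 tested Wnt genes, 1 organoid stood far above the other 5, its gap to the next as a share of the group's range being over Dixon's 95% critical value. Chance gives such a gap, at the high or the low end, in about 1 group in 20 where values are normally distributed, which low counts need not be. At D22, organoid 6 was the one that stood apart for Rspo3 (5.322 normalized CPM, the next organoid at 1.295), Wnt8b (2.728, next 0.2877), Wif1 (3.792, next 0.9072) and Dkk2 (0.7983, next 0.2094). Organoid 1 stood apart at D20 for Fzd5 (148.6, next 106.7) and Fzd7 (30.63, next 18.57), at D25 for Fzd3 (95.47, next 69.51) and at D30 for Sfrp4 (3.883, next 1.448). At D20, organoid 4 stood apart for Wnt7a (4.156, next 0.8942) and organoid 5 for Lgr5 (54.41, next 46.29). Tcf7 was high in D25 organoid 3 (2.199, next 1.07) and Tcf7l1 in D30 organoid 4 (2.477, next 0.9176).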

How the results depend on the processing

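The numbers of Wnt genes called stayed within 1.5 times of those reported under DESeq2, DESeq2's size factors, no filter, filterByExpr, annotated genes only, the replicate block and, for pairs, compared timepoints only, and no direction reversed. For D22 against D20, D25 against D22, D30 against D25 and D30 against D20, where 1, 4, 4 and 16 were called, leaving out 1 organoid at a time gave 1 to 1, 3 to 5, 3 to 4 and 14 to 18, with 16 to 21 in the joint test and 22 to 29 of the other pathway genes. The replicate numbers name separate organoids and same-numbered ones did not deviate together (median correlation 0.01, lowest -0.091), and the fit with the replicate block called 1, 3, 4 and 15 Wnt genes, 19 jointly. Without the 3 organoids of each timepoint highest in forebrain genes, 0, 0, 3 and 10 Wnt genes were called, and 8 jointly, in a fit with 12 organoids in place of 24. The Wnt7a, Rspo2 and Rspo3 calls and the D22 to D25 step of Tcf7l2 rest on p-values near the threshold. Genes of a few reads, such as Dkk2 at D20, are limited by depth.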
